A study of Mus musculus with 9 samples.

Results

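8 genes that encode writers of histone H3 lysine 9 (H3K9) methylation and heterochromatin chaperones were followed in mouse liver lacking HP1 proteins. They are Suv39h1, Suv39h2, Setdb1, Setdb2, Ehmt1, Ehmt2, Atrx and Daxx, taken by symbol from the 22701 genes of the deposited table, and all 8 were found and passed the filter on low values. Liver RNA of 9 mice, all 5 weeks old and of mixed C57BL/6 and 129svPas background, was sequenced. HP1ag_KO (3 livers) lacked HP1α and had lost HP1γ in the liver, HP1a_KO (2 livers) lacked HP1α, HP1ab_KO (1 liver) lacked HP1α and had lost HP1β in the liver, and WT (3 livers) carried none of these deletions. All 6 mutant livers therefore share the loss of HP1α, written HP1a-null below, and the liver deletions were studied only on top of it. The labels do not say which driver or which cells the liver deletions rest on, nor the litters of the animals. HP1ab_KO is a single library without a replicate check.

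Methylated H3K9 is the mark that HP1 proteins bind, and it packs DNA into heterochromatin, most densely around centromeres and over repeats. SUV39H1 and SUV39H2 trimethylate H3K9 there, SETDB1 does so at repeats and zinc finger targets, and the EHMT1 and EHMT2 pair (GLP and G9a) places mono- and dimethylation in euchromatin. ATRX and DAXX form a complex that deposits the histone variant H3.3 into heterochromatin and telomeres. These proteins work upstream of or beside HP1, and the question addressed is whether their transcripts differ in liver without HP1.

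Reads assigned to the listed genes, recovered from the deposited values, numbered 16266423 in HP1a_KO replicate 1 and 26375545 to 36161177 in the other 8 libraries. Values are normalised reads per gene, given as mean ± SD. The targeted genes were lower but present, with Cbx5 (HP1α) at 743 ± 75.8 in HP1ag_KO, 538 ± 53.3 in HP1a_KO and 663 in HP1ab_KO, against 1235 ± 279 in WT. Cbx3 (HP1γ) stood at 349.7 ± 27.5 in HP1ag_KO against 605 ± 59.7 in WT, and Cbx1 (HP1β) at 217 in HP1ab_KO against 917 ± 146 in WT. DESeq2 called Cbx5 in HP1ag_KO and HP1a_KO, Cbx3 in HP1ag_KO and Cbx1 in HP1ab_KO, and did not call Cbx5 in HP1ab_KO (adjusted p = 0.318). The limma adjusted p of these 5 differences was not under the threshold. All 8 hepatocyte markers were expressed in each library.

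Per kilobase of exon, 6 members lay close to one another across the 9 livers and the 2 Suv39h genes lay far below them. Ehmt2 was the highest at 298 ± 17.1 normalised reads per kb (SD, n = 9 here and for the next values), followed by Setdb2 at 234 ± 88.6, Atrx at 150.2 ± 14.1, Setdb1 at 144 ± 19.5, Ehmt1 at 129 ± 5.48 and Daxx at 117 ± 8.30. Suv39h1 stood at 35.6 ± 4.98 and Suv39h2 at 4.24 ± 1.02 per kb. The ranges of the 6 highest genes overlapped each with the next. Within libraries, Setdb2 exceeded Atrx in 9 of 9, Ehmt1 exceeded Daxx in 8, Ehmt2 exceeded Setdb2 and Atrx exceeded Setdb1 in 7, and Setdb1 exceeded Ehmt1 in 6. Below them Daxx exceeded Suv39h1, and Suv39h1 exceeded Suv39h2, in all 9 libraries without overlap. Lengths are the union of annotated exons, which includes rarely used ones, so the order depends on the annotation.

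No member was called different in any mutant group. Against WT, limma called 0 of 8 members and 0 of 13845 genes (0.0%) in HP1ag_KO, in HP1a_KO, in HP1ab_KO and in the 6 HP1a-null livers, as well as 0 (0.0%) between HP1ag_KO and HP1a_KO. At an unadjusted p under 0.05 limma found 1 member in all 5 comparisons, Suv39h1 in HP1a-null against WT, where 5.66% of all genes (784) reached that level. The backgrounds of the other comparisons at that level were 7.58% in HP1ag_KO against WT, 10.1% in HP1a_KO against WT, 3.7% in HP1ab_KO against WT and 16.2% between HP1ag_KO and HP1a_KO, each with 0 members. The quasi-likelihood test of edgeR called 0 members and 0 genes (0.0%) in each comparison. DESeq2 also called 0 members, where it called 0.716% of genes in HP1ag_KO, 0.629% in HP1a_KO, 0.0796% in HP1ab_KO and 0.203% in HP1a-null livers, each against WT, and 3.31% between HP1ag_KO and HP1a_KO. At an unadjusted p under 0.05, DESeq2 found Suv39h1 in HP1a-null against WT and Atrx between HP1ag_KO and HP1a_KO, and edgeR found Atrx alone. The comparisons with WT share its 3 livers, and HP1a-null against WT shares every library with the others, so they are not independent. The labels do not say that the animals came from separate litters, so p-values measure only the spread between these samples.

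**Figure D1:**
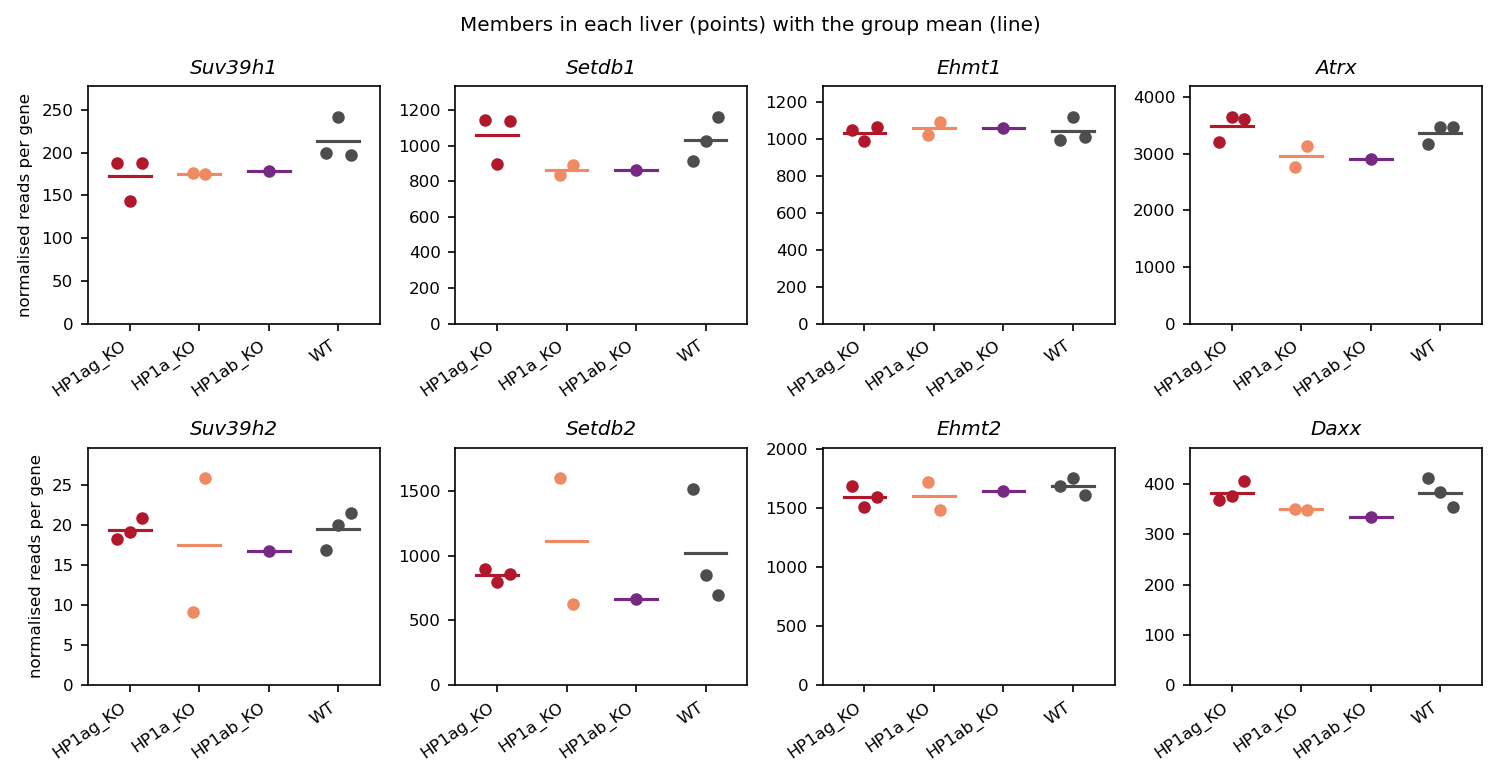
Normalised reads per gene (y axis, from 0) of the 8 members in each liver (points) with the group mean (line), for HP1ag_KO, HP1a_KO, HP1ab_KO and WT. The 6 mutant points of Suv39h1 lie below the 3 WT points, Setdb2 has 1 high liver in HP1a_KO and 1 in WT, and Ehmt1 varies least.

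Suv39h1 (ENSMUSG00000039231), the founding H3K9 trimethylase of pericentric heterochromatin, lies on the minus strand at GRCm38 chrX:8061171-8074760. It had 188, 144 and 188 normalised reads in HP1ag_KO, 176 and 175 in HP1a_KO and 179 in HP1ab_KO, against 200.1, 242 and 198 in WT. Each of the 6 mutant livers lay below each of the 3 WT livers. The highest mutant liver at 188 and the lowest WT liver at 198 were close to each other. Suv39h1 was 0.28 ± 0.13 log2 units lower (SE; difference -0.28, 95% interval -0.56 to -0.01) in HP1a-null than in WT, at 174.9 ± 16.4 (n = 6) against 213 ± 24.9 (n = 3). Its p was 0.0465 unadjusted and 0.863 adjusted over all genes in limma, and the adjusted p was 0.752 in DESeq2 and 0.870 in edgeR. Such complete separation in the lower direction was seen for 1 of 8 members, against 1.74% of all genes (241), and higher for 0 of 8, against 1.4%. The difference was -0.19 without WT replicate 2, the highest liver, and -0.23 without HP1ag_KO replicate 2, the lowest. Suv39h1 exons share 14.6% of their bases with the antisense gene Gm14820, and the strand setting of the counting is not given in the sources used here. In bulk liver, fewer cells of a type and less RNA per cell cannot be told apart.

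Cell-type markers were also read in these groups, and limma called 0 of them in each comparison. The 8 Kupffer cell (liver macrophage) markers summed to 11819 to 17229 in HP1ag_KO, 16020 and 18656 in HP1a_KO and 18031 in HP1ab_KO, against 10757 to 13020 in WT. All 8 had a positive difference in HP1a-null against WT, against 48.3% of all genes, none was at 0 in any library, and 4 of 8 had an unadjusted p under 0.05, against 5.66%. In that comparison 0 of 8 lay wholly above WT, against 1.4% of all genes, and DESeq2 called 0 of 8, against 0.203%. By genotype, 0 of 8 lay wholly above WT in HP1ag_KO, against 6.46% of all genes, and 6 of 8 in HP1a_KO, against 14.7%. In the single HP1ab_KO library 7 of 8 did, against 22.6%. The unadjusted p was under 0.05 for 0 of 8 in HP1ag_KO, against 7.58%, and for 5 of 8 in HP1a_KO, against 10.1%. The 8 stellate cell markers summed to 15090 to 17027 in HP1ag_KO, 18420 and 19964 in HP1a_KO and 18469 in HP1ab_KO, against 11444 to 17072 in WT. In HP1a-null against WT, 7 of these 8 were above 0, against 48.3% of all genes. An unadjusted p under 0.05 was found for 3, against 5.66%, and none was at 0. Of the 8 stellate cell markers, 1 lay wholly above WT in HP1ag_KO, against 6.46% of all genes. In HP1a_KO 5 did, against 14.7%, and 1 lay wholly below, against 15.1%. In the single HP1ab_KO library 6 of these markers lay above, against 22.6%. DESeq2 called 2 of them higher in HP1a_KO against WT, where it called 0.629% of all genes. They were the collagen genes Col1a1 (log2 difference 1.51, limma adjusted p = 0.397) and Col1a2 (0.90, limma adjusted p = 0.397). In HP1ag_KO against WT their differences were -0.0031 and 0.31. In HP1a_KO against WT, DESeq2 also called 1 hepatocyte, 1 Kupffer cell and 1 neutrophil marker higher, namely Hnf4a, Cd5l and S100a8. The 6 neutrophil markers summed to 20.2 to 112 in HP1ag_KO, 174 and 213 in HP1a_KO and 112 in HP1ab_KO, against 29.4 to 46.7 in WT. The defining marker Ly6g was at 0 in every WT, HP1ag_KO and HP1ab_KO library, and at 1.83 and 0.86 in HP1a_KO. The 2 neutrophil markers that passed the filter on low values, S100a8 and S100a9, had log2 differences of 2.26 and 2.24 in HP1a_KO against WT. The 7 erythroid genes summed to 5407 to 9319 in HP1ag_KO, 11309 and 13307 in HP1a_KO and 20024 in HP1ab_KO, against 7334 to 18195 in WT, and none was at 0. Alas2, the erythroid enzyme of heme synthesis, was below 0 in HP1a-null against WT while the other 6 were above. It had 748 to 2812 in the 6 mutant livers against 2839 to 4710 in WT. Thus 1 of the 7 lay wholly below WT, against 1.74% of all genes. The genotypes differed, with 0 of the 7 above 0 in HP1ag_KO against WT, against 47.9% of all genes. In HP1a_KO and in HP1ab_KO, 6 of the 7 were above 0, against 49.7% and 49.4%. The 16 cell cycle genes summed to 2706 to 5417 in HP1ag_KO, 3545 and 4920 in HP1a_KO and 4241 in HP1ab_KO, against 3078 to 6445 in WT, so these ranges overlapped. Their part in the Suv39h1 values was not tested.

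Suv39h2 (ENSMUSG00000026646, minus strand, GRCm38 chr2:3455815-3475031), the paralog whose expression is best known from testis, was read at a low level. It had 18.2, 19.1 and 20.8 normalised reads in HP1ag_KO, 9.17 and 25.8 in HP1a_KO and 16.8 in HP1ab_KO, against 16.9, 19.999 and 21.5 in WT. HP1ab_KO lay below every HP1ag_KO liver and just under the lowest WT liver, HP1ag_KO overlapped WT, and both extremes came from HP1a_KO. Those 2 libraries held 5 reads (95% Poisson interval 1.62 to 11.7) and 30 reads (20.2 to 42.8), so their spread rests on few molecules, and the intervals cover counting error only. The log2 difference in HP1ag_KO against WT was -0.0030 with an interval of -0.87 to 0.87. Suv39h2 shares 8.10% of its exon bases with Dclre1c on the opposite strand, which averaged 298. Within each library the ratio of Suv39h2 to Suv39h1 per kb ran from 0.0622 to 0.177.

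Setdb1 (ENSMUSG00000015697, minus strand, GRCm38 chr3:95323525-95357202) encodes the trimethylase that KRAB zinc finger proteins recruit through TRIM28. It had 1146, 895 and 1138 normalised reads in HP1ag_KO, 833 and 890 in HP1a_KO and 862 in HP1ab_KO, against 915, 1027 and 1161 in WT. HP1a_KO and HP1ab_KO lay below all WT livers, whereas HP1ag_KO overlapped WT. The log2 difference was 0.03 ± 0.13 in HP1ag_KO, -0.26 ± 0.15 in HP1a_KO and -0.26 ± 0.19 in HP1ab_KO, each against WT and in SE. With terms in the fit for neighbouring animal numbers, which tie 2 HP1ag_KO livers to 2 WT livers, the difference was 0.03 in HP1ag_KO, -0.0552 in HP1a_KO and -0.0535 in HP1ab_KO. There the WT level for HP1a_KO and HP1ab_KO rested on WT replicate 1 and HP1ag_KO replicate 2, shifted by the HP1ag_KO difference. The other 2 WT livers entered only through that difference.

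Setdb2 (ENSMUSG00000071350), a relative of Setdb1 described as an H3K9 methyltransferase, was the most variable member. It had 901, 795 and 858 normalised reads in HP1ag_KO, 1598 and 629 in HP1a_KO and 664 in HP1ab_KO, against 1513, 849 and 700 in WT. The 2 high livers, HP1a_KO replicate 1 and WT replicate 1, belong to different genotypes and stood apart from the other 7, which ran from 629 to 901. Its coefficient of variation over the 9 livers was 37.9%, against a median of 11.3% over the 2378 genes within 1.5-fold of its mean, 96.9% of which varied less. The log2 difference of HP1a_KO against WT was 0.05 with all libraries, -0.62 without HP1a_KO replicate 1 and 0.38 without WT replicate 1. That of HP1ab_KO against WT was -0.54 and -0.22 without WT replicate 1, and that of HP1a-null against WT was -0.16 and 0.16 without WT replicate 1. With the neighbouring-number terms these differences were -0.22 in HP1a_KO, -0.81 in HP1ab_KO and -0.26 in HP1a-null. In HP1a_KO and HP1ab_KO these terms rest the WT level on WT replicate 1, a high liver, and on HP1ag_KO replicate 2. The level and sign of Setdb2 in a genotype thus rested on single livers.

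Setdb2 shares its upstream region with Cab39l, which runs the other way. The window is shown because of this shared start region. It spans GRCm38.p6 chr14:59440831-59441130 on the minus strand, is taken from RefSeq, and runs from 250 bases before the RefSeq start of Setdb2 to 50 after it. Capitals mark the 87 bases (59440885 to 59440971) between the annotated GENCODE starts of the 2 genes.
Setdb2 promoter: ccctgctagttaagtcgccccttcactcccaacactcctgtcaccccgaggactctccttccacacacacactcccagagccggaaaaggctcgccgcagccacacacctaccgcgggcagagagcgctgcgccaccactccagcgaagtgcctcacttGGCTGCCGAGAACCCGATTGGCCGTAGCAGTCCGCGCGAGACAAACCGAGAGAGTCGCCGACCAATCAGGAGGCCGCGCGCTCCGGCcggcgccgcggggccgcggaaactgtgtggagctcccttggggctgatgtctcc
The window holds 29 CpG dinucleotides, against a median of 7 over all 32851 promoters in the RefSeq table. Its capitals hold the letters CCAAT on one strand or the other at 75 and 30 bases before the start, a match that 37.4% of all promoters have at least once. The letters CACGTG (E-box, in 7.15% of promoters) and AGAACA (a glucocorticoid receptor half-site, in 18.97%) were not found on either strand. These motifs were chosen after values had been seen.

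Genes around Setdb2 did not move as one. Cab39l, which encodes a partner of the kinase LKB1, stayed between 1627 and 2129 in all 9 livers. Phf11c, the next gene downstream on the same strand at a distance of 6.63 kb, had 384, 293 and 262 normalised reads in HP1ag_KO, 648 and 175 in HP1a_KO and 147 in HP1ab_KO, against 468, 210.5 and 137 in WT. Its 2 highest livers were the same as those of Setdb2. Phf11d, 36.5 kb downstream on the same strand, was highest in HP1ag_KO replicate 3 at 255. It had 218 in HP1a_KO replicate 1 and 149 in WT replicate 1. Cdadc1, 118.5 kb upstream, had 917 in WT replicate 1 and 616 in HP1a_KO replicate 1. A link between Setdb2 and Phf11c was not tested. Per kb, the ratio of Setdb2 to Setdb1 was 3.25 and 2.80 in HP1a_KO replicate 1 and WT replicate 1, and 1.02 to 1.504 in the other 7.

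**Figure D2:**
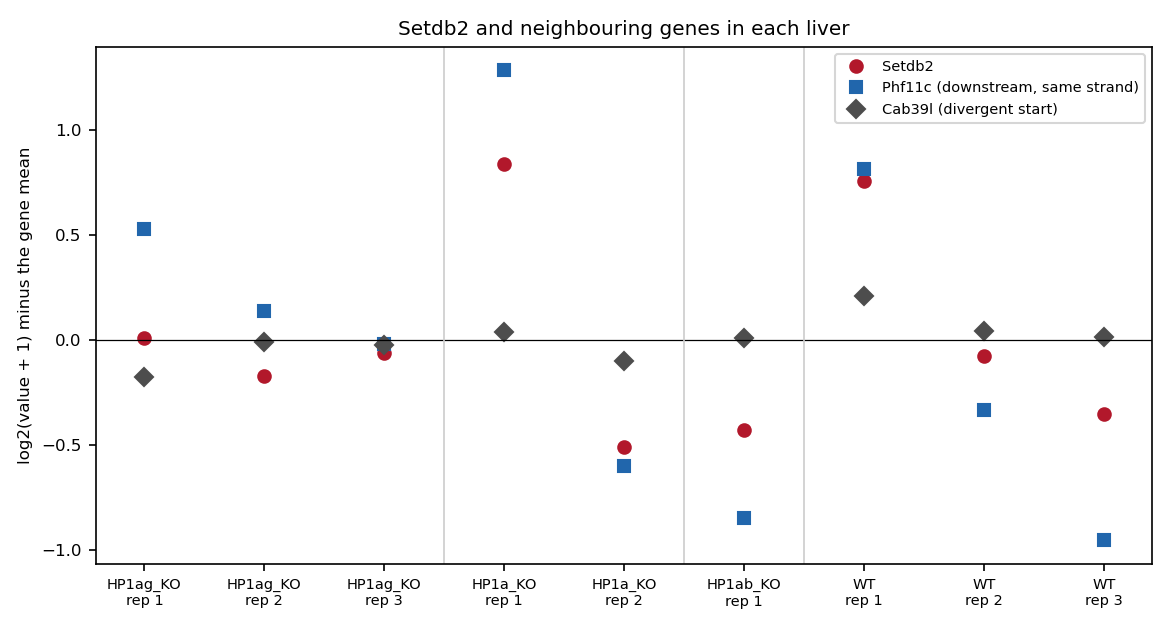
Log2(value + 1) minus the mean of each gene over the 9 livers (y axis) for Setdb2, its downstream neighbour Phf11c and its divergent neighbour Cab39l, by liver (x axis, grouped by genotype). Setdb2 and Phf11c are highest in HP1a_KO replicate 1 and WT replicate 1, while Cab39l stays between 1627 and 2129 normalised reads.

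Ehmt1 and Ehmt2, which work as a heterodimer, were the steadiest members. Ehmt1 (ENSMUSG00000036893, minus strand, GRCm38 chr2:24789928-24919614) had 1046, 989 and 1066 normalised reads in HP1ag_KO, 1024 and 1092 in HP1a_KO and 1060 in HP1ab_KO, against 994, 1119 and 1009 in WT. All groups overlapped. Its coefficient of variation was 4.26%, and 1.48% of the 2359 genes within 1.5-fold of its mean varied less. Ehmt2 (ENSMUSG00000013787, plus strand, GRCm38 chr17:34898469-34914052) had 1691, 1506 and 1591 in HP1ag_KO, 1725 and 1481 in HP1a_KO and 1648 in HP1ab_KO, against 1688, 1751 and 1615 in WT. These groups overlapped as well, with a coefficient of variation of 5.74%, below which 8.77% of genes of like level fell. In HP1a-null against WT the 95% interval of the log2 difference was -0.15 to 0.17 for Ehmt1 and -0.24 to 0.10 for Ehmt2. The ratio of Ehmt1 to Ehmt2 per kb ran from 0.398 to 0.498 over the 9 livers. Ehmt2 starts 0.204 kb from the complement gene C2 on the opposite strand, which ran from 2330 to 3013.

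Atrx and Daxx, the remodeller and the histone chaperone of the H3.3 complex, were lowest in the livers lacking HP1α without HP1γ loss. Atrx (ENSMUSG00000031229, minus strand, GRCm38 chrX:105797615-105929403) had 3210, 3650 and 3617 normalised reads in HP1ag_KO, 2774 and 3141 in HP1a_KO and 2909 in HP1ab_KO, against 3174, 3465 and 3475 in WT. Daxx (ENSMUSG00000002307, plus strand, GRCm38 chr17:33909414-33915590) had 367, 376 and 405 in HP1ag_KO, 350.4 and 348 in HP1a_KO and 335 in HP1ab_KO, against 411, 384 and 354 in WT. For both genes HP1ag_KO overlapped WT, and HP1a_KO and HP1ab_KO lay below all 3 WT livers. The log2 differences of HP1a_KO against WT were -0.19 ± 0.11 for Atrx and -0.13 ± 0.12 for Daxx (SE), and those of HP1ab_KO against WT were -0.21 ± 0.13 and -0.19 ± 0.15. The ratio of Atrx to Daxx per kb ran from 1.12 to 1.42.

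Where HP1α alone or HP1α and HP1β were missing, most members had negative differences from WT, and none passed the test. In HP1a_KO, 4 of 8 members lay wholly below WT (Suv39h1, Setdb1, Atrx and Daxx), against 15.1% of all genes, and 0 lay above, against 14.7%. In HP1ab_KO, 6 of 8 lay below all WT livers (the same 4 with Suv39h2 and Setdb2), against 24.8% of all genes, and 0 above, against 22.6%. Of these, Suv39h2 was nearly level with the lowest WT liver, at 16.8 (21 reads) against 16.9 (19 reads). In HP1ag_KO, 1 of 8 lay below (Suv39h1), against 7.05%, and 0 above, against 6.46%. Differences above 0 numbered 3 of 8 in HP1ag_KO (47.9% of all genes), 2 in HP1a_KO (49.7%), 1 in HP1ab_KO (49.4%) and 1 in HP1a-null livers (48.3%), each against WT, and 4 of 8 between HP1ag_KO and HP1a_KO (48.0%). The median log2 difference of the 8 members was -0.0055 in HP1ag_KO, -0.16 in HP1a_KO, -0.20 in HP1ab_KO and -0.09 in HP1a-null, against -0.01, -0.0016, -0.0034 and -0.0072 over all genes tested. The median of the members was -0.0946 in edgeR for HP1a_KO and -0.0835 with the neighbouring-number terms for HP1ab_KO. No difference behind these counts passed the test over all genes, and HP1ab_KO counts rest on 1 library.

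**Figure D3:**
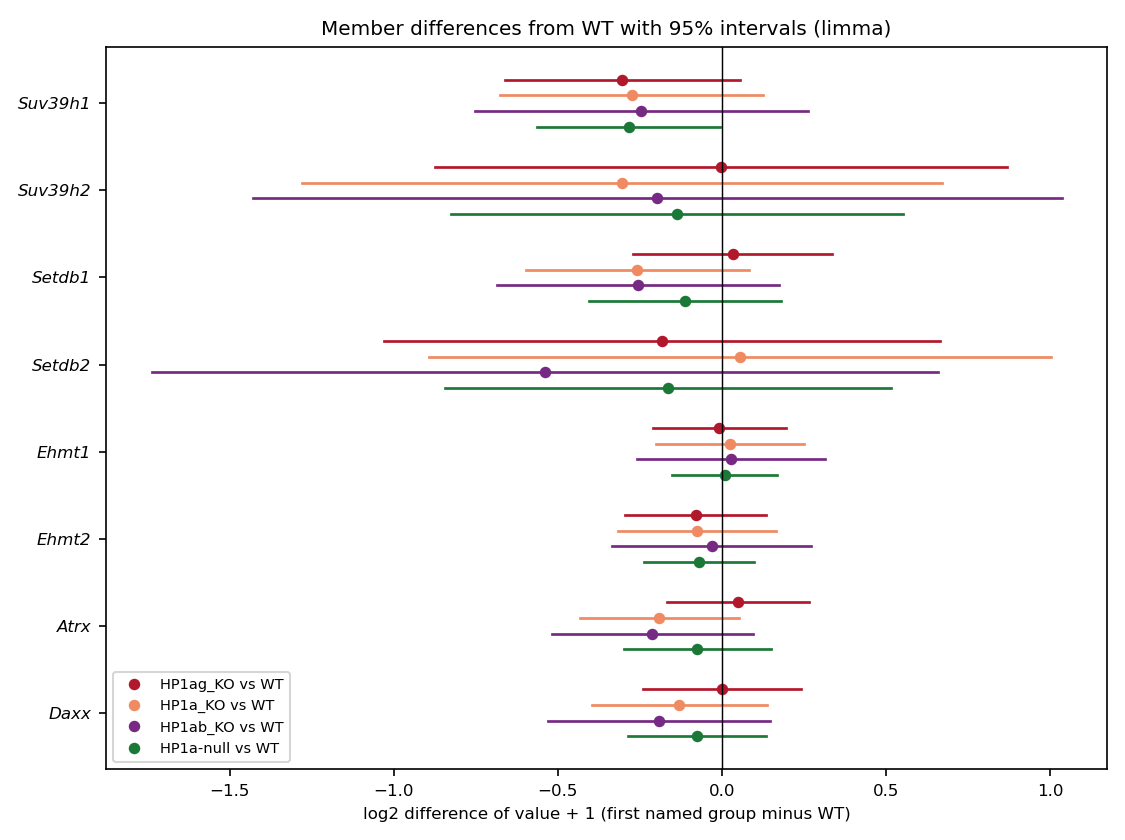
Log2 difference of value + 1 (x axis) of each member in HP1ag_KO, HP1a_KO, HP1ab_KO and the 6 HP1a-null livers, each minus WT, with 95% intervals from limma. The interval of Suv39h1 in HP1a-null livers, -0.56 to -0.01, is the one that leaves out 0, and those of Setdb2 and Suv39h2 are the widest.

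Setting HP1ag_KO beside HP1a_KO compares livers lacking HP1α with and without the added loss of HP1γ. Which libraries were sequenced together is not given in the sources used here, and its part in these differences was not tested. Setdb1 (1060 ± 143 in HP1ag_KO against 862 ± 40.6 in HP1a_KO), Atrx (3492 ± 245 against 2957 ± 259) and Daxx (383 ± 19.8 against 349.4 ± 1.43) were higher in every HP1ag_KO liver than in both HP1a_KO livers. That is 3 of 8 members, against 17.5% of all genes, with 0 of 8 wholly lower, against 19.2%. The log2 differences were 0.29 ± 0.15 for Setdb1 (limma adjusted p = 0.377), 0.24 ± 0.11 for Atrx (adjusted p = 0.312) and 0.13 ± 0.12 for Daxx (adjusted p = 0.618). With the neighbouring-number terms that of Setdb1 was 0.0880 (limma adjusted p = 0.729). For Atrx the unadjusted p was 0.0468 in DESeq2 and 0.0477 in edgeR, with adjusted p of 0.319 and 0.311. Suv39h1 did not separate these groups, at 173 ± 25.7 in HP1ag_KO and 175 ± 1.06 in HP1a_KO, with an interval of -0.43 to 0.37 for the log2 difference, which was -0.03 and, with the neighbouring-number terms, -0.20.

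Partner genes of the H3K9 pathway were counted from lists of their recruiters, readers, erasers and chaperones, and limma called 0 of them in each comparison. Of 8 tested partners of SETDB1 and G9a, 1 reached an unadjusted p under 0.05 in HP1ag_KO against WT, where 7.58% of all genes did. It was Cdyl2, a chromodomain protein, at 86.8 ± 7.62 against 133 ± 28.4 (log2 difference -0.59 ± 0.19, limma adjusted p = 0.584). In HP1a_KO against WT, 0 of these 8 did so, against 10.1% of all genes. The HUSH complex, which recruits SETDB1 to transposons, had 0 of 4 at that level in HP1ag_KO, against 7.58% of all genes, and 1 of 4 in HP1a_KO, against 10.1%. That gene was Tasor, the HUSH scaffold, at 2050 ± 73.9 in HP1a_KO against 2602 ± 175 in WT (-0.34 ± 0.14, limma adjusted p = 0.473). None of the 10 tested H3K9 demethylases and none of 6 other heterochromatin methyltransferases reached it in either comparison. Their medians were 0.01 and 0.0026 in HP1ag_KO and 0.02 and 0.06 in HP1a_KO.

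Among 12 genes of H3.3 and its chaperones, 2 reached an unadjusted p under 0.05 in HP1ag_KO against WT (7.58% of all genes), 0 in HP1a_KO against WT (10.1%) and 3 between HP1ag_KO and HP1a_KO (16.2%). Ubn2, a subunit of the HIRA chaperone complex, had 1436 ± 94.9 in HP1ag_KO against 1173 ± 43.6 in WT (0.29 ± 0.09, adjusted p = 0.584), and Nap1l1, a general histone chaperone, 885 ± 161 against 1219 ± 142 (-0.47 ± 0.15, adjusted p = 0.584). Hira itself, which deposits H3.3 outside the ATRX and DAXX route, had 241 ± 4.01 in HP1ag_KO against 393 ± 12.8 in HP1a_KO. Its log2 difference was -0.70 ± 0.18 (limma adjusted p = 0.152), and DESeq2 called it lower (adjusted p = 0.0456). Against WT, at 306 ± 69.7, it was not called in either group. Of 12 genes of nuclear bodies and chromatin remodellers, 1 reached that level in HP1ag_KO, against 7.58% of all genes, and 0 in HP1a_KO, against 10.1%. It was Mbd1, a methyl-CpG binding protein that recruits SETDB1, at 5207 ± 1399 against 2593 ± 1843 (1.20 ± 0.48, adjusted p = 0.634), with overlapping livers.

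**Figure D4:**
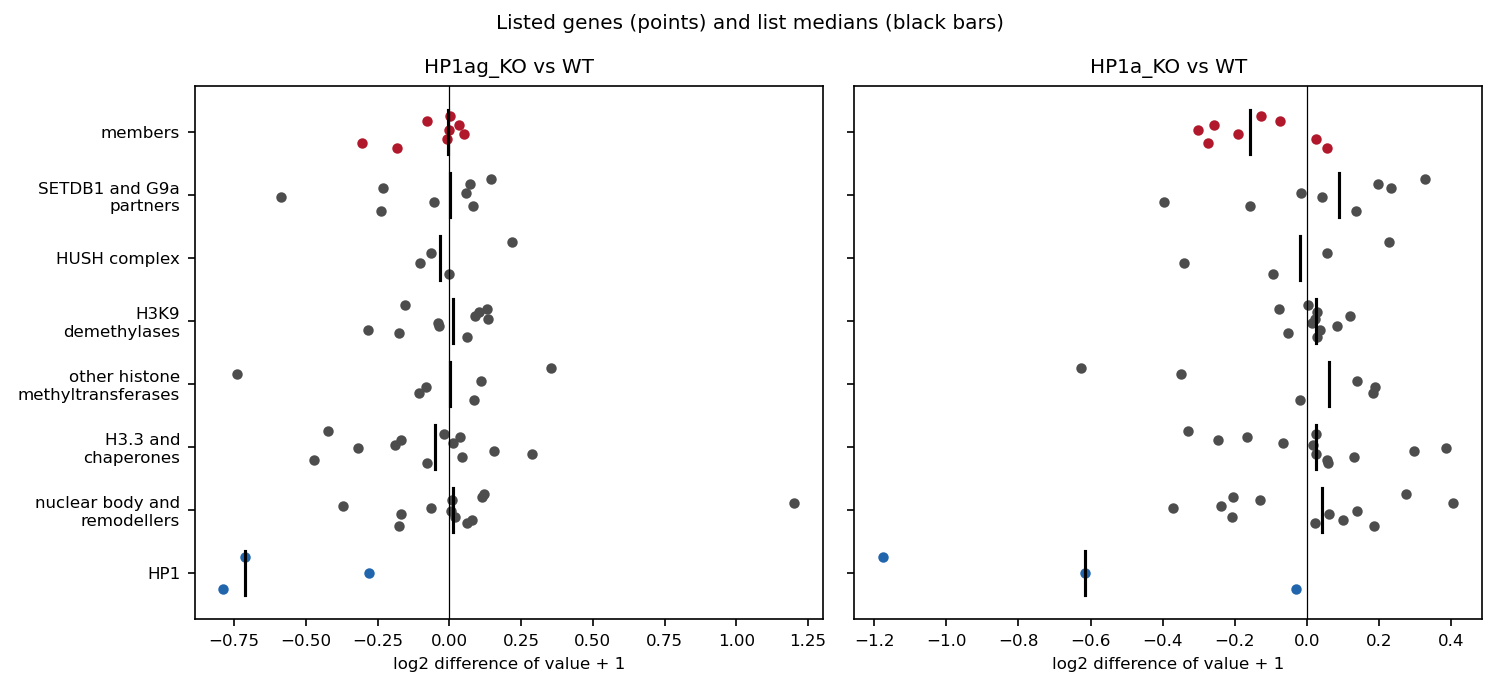
Log2 difference of value + 1 (x axis) of the members, 6 pathway lists and the HP1 genes in HP1ag_KO against WT (left) and HP1a_KO against WT (right), with list medians as black bars. The HP1 list holds the targeted genes, so its low place follows in part from the deletions. Its median is -0.71 in HP1ag_KO, that of Cbx5, and -0.62 in HP1a_KO, that of Cbx1, which is not targeted there. The members lie at -0.0055 and -0.16.

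Genes whose pattern over the 9 livers was most like that of each member differed from member to member. Likeness is the root mean square difference of centred log2 values, searched over 10752 genes. On that scale the spread of a member about its own mean was 0.0576 for Ehmt1, 0.0791 for Ehmt2 and 0.365 for Suv39h2. Flat genes therefore lie near Ehmt1 and Ehmt2, and the Suv39h2 extremes are HP1a_KO libraries of 5 and 30 reads. Whether these genes share more than such closeness was not tested. The closest to Suv39h1 were Pusl1 and Aaas (0.08 each), to Suv39h2 Inmt (0.11) and Acsl1 (0.13), and to Setdb1 Spice1 (0.07) and Mrpl18 (0.07). Those of Ehmt1 were Nedd4 (0.03) and Rrp1 (0.04), of Ehmt2 Ykt6 (0.04) and Tmem106b (0.05), of Atrx Iyd (0.04) and Fdxr (0.05), and of Daxx Angel2 (0.04) and Bnip2 (0.04). Among those of Setdb2 was Dopey2 (0.24).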

How the data were processed

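Ribosome-depleted total RNA of 9 livers went into strand-specific libraries, per the labels' protocols. Tools named in the submitters' processing notes, without roles, are DESeq2 1.0.19, HTSeq 0.5.4p3, Bowtie2 2.1.0, TopHat2 2.0.10 and CASAVA 1.8.2, and the build is mm10. The authors deposited a normalised signal per gene, whose steps in each library show that read counts had been divided by a size factor (0.545 to 1.25). Multiplying back gave whole reads for 100% of values within 0.1 read. How strand was set in counting, which annotation release was used and what was filtered is not given in the sources used here. Replicate libraries were not copies of each other (chi-square of 52.9 to 136 per degree of freedom).

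The members and gene lists were chosen with earlier results of these data known. Groups came from the genotype labels. With limma 3.58.1 in R 4.3.3, log2(value + 1) was fitted with a mean trend for 13845 genes (mean of 10 or more), a scale that understates differences of low genes. The 4 groups shared a model, with 5 residual degrees of freedom and 3.13 prior ones. It takes HP1ab_KO, a lone library, to vary like the rest. HP1a-null against WT had its own model (7 residual). Calls were two-sided at an adjusted p under 0.05 (Benjamini-Hochberg over all genes tested). Recovered reads were tested with edgeR 4.0.16, which called 0 genes, and DESeq2 1.42.0, which called 11 to 457 per comparison. Scripts were tested on simulated data. Genes eligible to be named were the members, the 2 genes most like each, and per list and comparison the 3 with the smallest limma p. A gene so chosen is not reported here. Exon lengths and coordinates are from GENCODE annotation of GRCm38, and the promoter is from RefSeq GRCm38.p6. Other settings tried were pseudocounts of 0.5 and 5, no filter or a mean of 50, scaling, no trend, only the groups compared, the count tests, terms for neighbouring animal numbers and leaving out each library. Python 3.11.15 with numpy 2.4.6, pandas 2.3.3, scipy 1.17.1 and matplotlib 3.10.9 was used.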

Additional observations from a re-analysis of the deposited data

Results flagged for a closer look

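Among the 6 HP1a-null livers, the lowest Suv39h1 value (144 in HP1ag_KO replicate 2) stood apart, with a gap to the next liver that made up 0.694 of the whole range. The highest Setdb2 value (1598 in HP1a_KO replicate 1) stood apart likewise, with a gap of 0.719 of the range. The other 6 members had no such liver. A group of unremarkable values is singled out by chance about 1 time in 20, and pooling 3 genotypes into 1 group was a choice of the comparison.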

How the results depend on the processing

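No member was called under any of 651 alternative values, of which 50 changed sign and 601 kept sign and side of the threshold. The median of all genes moved by at most 0.09 (equal totals, HP1ag_KO against HP1a_KO). Suv39h1 kept its lower direction in every comparison with WT (-0.37 to -0.17 in HP1ag_KO, -0.33 to -0.10 in HP1a_KO, -0.30 to -0.0735 in HP1ab_KO and -0.34 to -0.19 in HP1a-null, the smallest in HP1a_KO and HP1ab_KO being with neighbouring-number terms). Calls over all genes were 0 in limma, and DESeq2 called 99 in HP1ag_KO, 87 in HP1a_KO, 11 in HP1ab_KO and 28 in HP1a-null, each against WT, and 457 in HP1ag_KO against HP1a_KO. In HP1a_KO against WT a pseudocount of 5 gave 1 call. In HP1ab_KO against WT the absence of a filter gave 54 and neighbouring-number terms 1. Without the trend there were 7 in HP1ag_KO against HP1a_KO and 1 in HP1a-null against WT. Leaving out 1 library gave 0 to 2 calls in HP1ag_KO, 0 to 5 in HP1a_KO, 0 to 2 in HP1ab_KO and 0 to 1 in HP1a-null, each against WT, and 0 to 5 in HP1ag_KO against HP1a_KO. The cause of these shifts was not tested.

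The member median was -0.0946 in edgeR for HP1a_KO against WT and -0.0835 with neighbouring-number terms for HP1ab_KO against WT. For HP1ag_KO against HP1a_KO it was -0.0036 with a mean of at least 50, which drops Suv39h2, and 0.16 with equal totals. Signs changed for HP1ag_KO against WT in Suv39h2 (TMM 0.0142, equal totals 0.0479, edgeR 0.0109, DESeq2 0.0023) and Ehmt1 (TMM 0.0101, equal totals 0.0456, edgeR 0.0090, DESeq2 0.00073). They also changed for HP1a_KO against WT in Ehmt1 (equal totals -0.0171) and Setdb2 (neighbouring-number terms -0.22), for HP1ab_KO against WT in Ehmt2 (neighbouring-number terms 0.0085) and for HP1a-null against WT in Setdb1 (neighbouring-number terms 0.0037). For HP1ag_KO against HP1a_KO they changed in Ehmt2 (TMM 0.0066, equal totals 0.0918, edgeR 0.0048, DESeq2 0.0085), Suv39h1 (equal totals 0.0660), Ehmt1 (equal totals 0.0627) and Setdb2 (neighbouring-number terms 0.0384).

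Leaving out 1 library gave ranges that crossed 0 for 18 differences. In HP1ag_KO against WT these were Daxx (-0.0546 to 0.0527), Ehmt1 (-0.0397 to 0.0454), Setdb1 (-0.0519 to 0.15), Setdb2 (-0.41 to 0.14) and Suv39h2 (-0.0968 to 0.0694). In HP1a_KO against WT these were Ehmt1 (-0.0215 to 0.0781), Ehmt2 (-0.18 to 0.0344), Setdb2 (-0.62 to 0.73) and Suv39h2 (-1.003 to 0.40), and in HP1ab_KO against WT Ehmt1 (-0.0027 to 0.0824). In HP1ag_KO against HP1a_KO these were Ehmt1 (-0.0790 to 0.0136), Ehmt2 (-0.11 to 0.11), Setdb2 (-0.91 to 0.43), Suv39h1 (-0.0947 to 0.0999) and Suv39h2 (-0.40 to 0.9997). In HP1a-null against WT these were Ehmt1 (-0.0226 to 0.0625), Setdb2 (-0.39 to 0.16) and Suv39h2 (-0.24 to 0.0378). As a share of the library, 21 of 24 member levels stayed within 1 SD, the others being Suv39h1 and Daxx in HP1a_KO (79.9% and 88.7% of WT) and Ehmt1 in HP1ag_KO (103% of WT). In HP1a_KO the SD came from 2 near-equal livers (1.06 for Suv39h1 and 1.43 for Daxx), so a small shift exceeded it.

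A check chosen after seeing the data left out livers that stood apart for Setdb2. Without HP1a_KO replicate 1, 6 of 8 members lay below WT and 1 above in HP1a_KO, against 24.8% and 24.2% of genes, and 5 lay above and 2 below between HP1ag_KO and HP1a_KO, against 26.5% and 29.6%. Without WT replicate 1 the members below WT numbered 1 in HP1ag_KO, 4 in HP1a_KO, 6 in HP1ab_KO and 1 in HP1a-null, against larger shares of all genes than with it (11.3%, 23.7%, 35.1% and 4.35%). The neighbouring-number terms join HP1ag_KO and WT livers by animal numbers that follow each other, which the labels do not call litters. Both HP1a_KO livers also carry numbers that follow each other, which these terms leave out because they lie within a group. No paired analysis was possible because the labels give no replicate number shared between groups, so these terms are not a pairing by design. Against HP1a_KO and HP1ab_KO, they set the reference level by the livers without a term, WT replicate 1 and HP1ag_KO replicate 2. The other WT and HP1ag_KO livers then entered only through the difference between HP1ag_KO and WT. Suv39h2 had 5 to 30 reads per library, and groups held 1 to 3 livers.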
